A study of Mus musculus with 4 samples.

Results

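The genes described here are 75 mouse zinc finger genes whose symbol is Zfp followed by digits and whose exon reads in the sense direction summed to 1000 or more over 4 testis libraries. They were selected on that sum, so their level is the criterion and is given only as a description. The table of exon sense reads listed 210 genes with such a symbol among 12415 features, of which 135 fell under the sum, and the 75 genes made up 0.604% of the features.

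The study asked whether the testis transcriptome changes when Nef-sp, a testis-enriched RNA exonuclease listed in the files as 2610020H08Rik, is disrupted. Total testicular RNA was sequenced from adult mice of the C57Bl/6J background at postnatal day 60, with 2 libraries of Nef-sp -/- mice and 2 of Nef-sp +/- mice, the controls. The null allele is a small out-of-frame deletion made with Cas9 nickase and a pair of guide RNAs in injected embryos, and founder females were bred to wild-type males of C57Bl/6J Rj. The control mice therefore carry one copy of the same deletion, and no wild-type library was analysed here. The labels do not say whether the libraries of a genotype came from separate animals, so p-values measure only the spread between these libraries.

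C2H2 zinc finger proteins fold each finger around a zinc ion held by a pair of cysteines and a pair of histidines, and strings of fingers read DNA or, in some members, RNA or protein. Many fingers in tandem are joined by a short conserved linker known by its amino acids as TGEKP. A large subset carries a KRAB domain, which binds the corepressor KAP1, encoded by Trim28, and through it a histone methyltransferase, heterochromatin proteins and deacetylases. KRAB zinc finger proteins are best known for the silencing of retroelements and the protection of imprints, and several Zfp genes were first described in male germ cells.

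One finger each of Zfp654 and Zfp646, the Zfp genes with the most reads, is shown with one finger each of Zfp26 and Zfp39, which carry a KRAB pattern, because the difference in finger architecture recurs below. Each runs from the first cysteine codon through the segment that follows the second histidine. The capitals mark the codons of the cysteines and histidines and, in Zfp26 and Zfp39, those of the TGEKP linker. Zfp654 was read from the minus strand of chr16:64785885-64785962 in mm9, in exon 1 of 2, and Zfp646 from the plus strand of chr7:135022194-135022274, in exon 2 of 3. Zfp26 lies on the minus strand at chr9:20242430-20242507, in exon 10 of 10, and Zfp39 on the minus strand at chr11:58704129-58704206, in exon 5 of 5. All 4 stretches are coding.
Zfp654: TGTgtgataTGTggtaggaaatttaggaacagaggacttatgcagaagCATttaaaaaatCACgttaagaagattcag
Zfp646: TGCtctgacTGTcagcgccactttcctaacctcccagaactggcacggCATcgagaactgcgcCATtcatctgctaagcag
Zfp26: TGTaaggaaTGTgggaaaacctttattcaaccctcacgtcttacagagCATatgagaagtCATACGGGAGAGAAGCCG
Zfp39: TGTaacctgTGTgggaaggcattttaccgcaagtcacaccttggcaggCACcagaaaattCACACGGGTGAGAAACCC

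The KRAB stretch of the latter genes lies in an earlier exon, as is usual for this class. It was found at chr9:20245849-20245881 in exon 7 of 10 of Zfp26 and at chr11:58714143-58714175 in exon 3 of 5 of Zfp39, both on the minus strand. Here the capitals mark the codons of the conserved aspartate, valine, phenylalanine, glutamate and tryptophan by which the stretch was recognised.
Zfp26 KRAB: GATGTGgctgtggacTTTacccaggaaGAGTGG
Zfp39 KRAB: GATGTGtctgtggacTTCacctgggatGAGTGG

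The libraries held 20659865 and 34442517 reads in Nef-sp +/- and 21104999 and 20685289 reads in Nef-sp -/-, over all annotation categories. The targeted gene was counted first. Nef-sp had 1843 and 1693 normalised exon sense reads in the Nef-sp +/- libraries against 407 and 497 in the Nef-sp -/- libraries, and its log2 fold change was -1.97 (SE 0.0921, edgeR quasi-likelihood adjusted p = 4.12e-06), which fits the genotype labels. A normalised read count here is the raw count divided by the library's effective size relative to the mean of the 4 libraries, within one annotation category.

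The Zfp genes together took 0.834% (95% exact binomial interval 0.830% to 0.839%) and 0.829% (0.825% to 0.832%) of exon sense reads in the Nef-sp +/- libraries. In the Nef-sp -/- libraries they took 0.826% (0.822% to 0.831%) and 0.813% (0.808% to 0.817%). The means were 0.832% ± 0.00394 and 0.820% ± 0.00962 (SD, n = 2), and with 2 libraries against 2 an exact permutation test cannot pass 0.05. The intervals cover counting error only, since reads without molecular identifiers are not independent molecules.

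**Figure D1:**
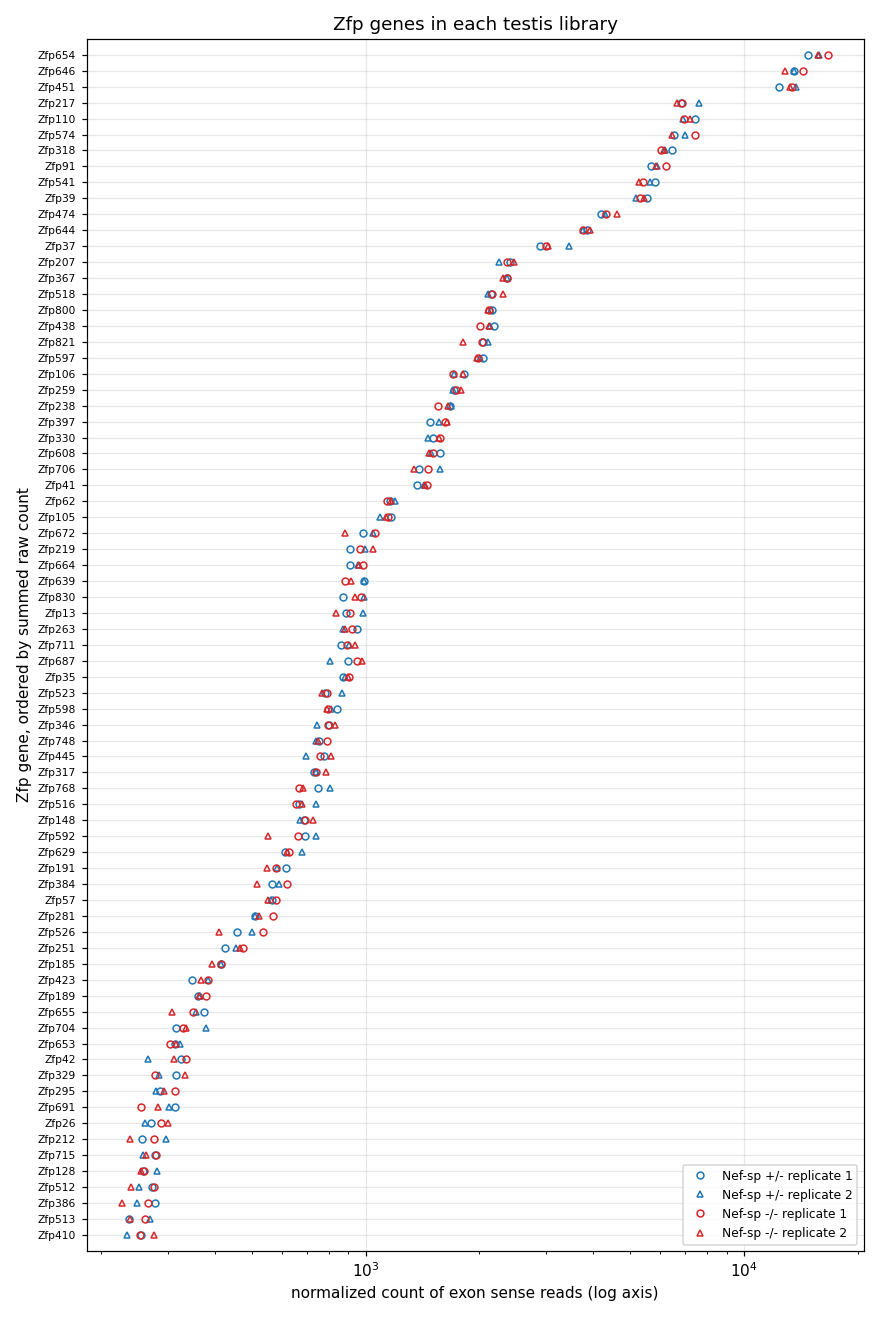
Normalised count of exon sense reads (log axis) of each of the 75 Zfp genes, ordered by summed raw count; circles and triangles are replicates 1 and 2, blue Nef-sp +/- and red Nef-sp -/-. The 4 points of a gene lie close together compared with the range from 63013 summed reads for Zfp654 to 1009 for Zfp410.

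The reads were spread unevenly over the genes. The 5 genes with the most reads held 36.8% of the 616217 member reads and the first 10 held 56.2%. Raw sums ran 62.5-fold from Zfp654 (63013) to Zfp410 (1009). Annotated exon length differs between the genes, so levels were compared per kilobase of exon, for the 74 genes that could be matched to the mm9 annotation. On that scale the median was 223.8 normalised reads per kb and the range was 135-fold.

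Zfp654, which lies on the minus strand of chr16:64780177-64786147, had the highest level per kb at 3113 and 3338 in the controls against 3522 and 3309 in Nef-sp -/- libraries. Zfp474, a gene described in testis, came next with a mean over the 4 libraries of 2256, followed by Zfp646 with 2017. Zfp110, a KRAB protein known to bind a neurotrophin receptor, had 1727 and Zfp574 had 1635. The lowest were Zfp704 with 24.6, Zfp26 with 29.1 and Zfp329 with 44.8. In this order the libraries of Zfp110 and Zfp574 overlapped, as did those of Zfp704 and Zfp26, and the other neighbours among these 8 genes did not overlap. The level of Zfp704 refers to 13.843 kb of annotated exon and that of Zfp451 to 19.195 kb, the longest, so their values per kb depend on which exons are annotated. Exon length was taken over all annotated transcripts of each gene, so the whole order per kb could change with another choice of exons.

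The just-included genes were Zfp410 with 1009 raw reads, Zfp513 with 1017 and Zfp386 with 1018. Just below the sum lay Zfp819 with 971, Zfp81 with 896 and Zfp740 with 882. A sum of 500 would have taken 103 genes and a sum of 2000 would have taken 55.

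No genotype difference in the 75 Zfp genes passed the test. All 75 passed the filter on low counts, and edgeR's quasi-likelihood test called 0 of them at an adjusted p below 0.05, against 1 of 10728 features tested (0.00932%), the targeted gene. At an unadjusted p below 0.05 there were 3 members, against 515 features (4.8%), and DESeq2 had 0 members with an unadjusted or adjusted p below 0.05. The log2 fold changes, as Nef-sp -/- over Nef-sp +/-, ran from -0.23 to 0.18 with a median of -0.0038, and 36 were above 0 and 39 below. The median over all features tested was -0.0002, and over the 6663 features with a summed count of 1000 or more it was 0.005. In bulk testis RNA, fewer cells of a type and less RNA per cell cannot be told apart.

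The intervals of the fold changes were narrow. Each is for a single gene and rests on a variance that edgeR moderates across all features tested. They cover the spread between these libraries and do not bound the difference between animals of the genotypes. The 95% intervals of all 75 log2 fold changes lay within ±0.5, and those of 49 within ±0.25. For comparison, 6612 of the 6663 features with a summed count of 1000 or more had an interval within ±0.5. The half-width of a member's interval was 0.158 in the median and ran from 0.128 to 0.252. The bound farthest from 0 was 0.434 in size, for Zfp592. The median SD of log2 values between libraries of one genotype was 0.0584 for the Zfp genes and 0.0623 for all features with a summed count of 1000 or more.

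**Figure D2:**
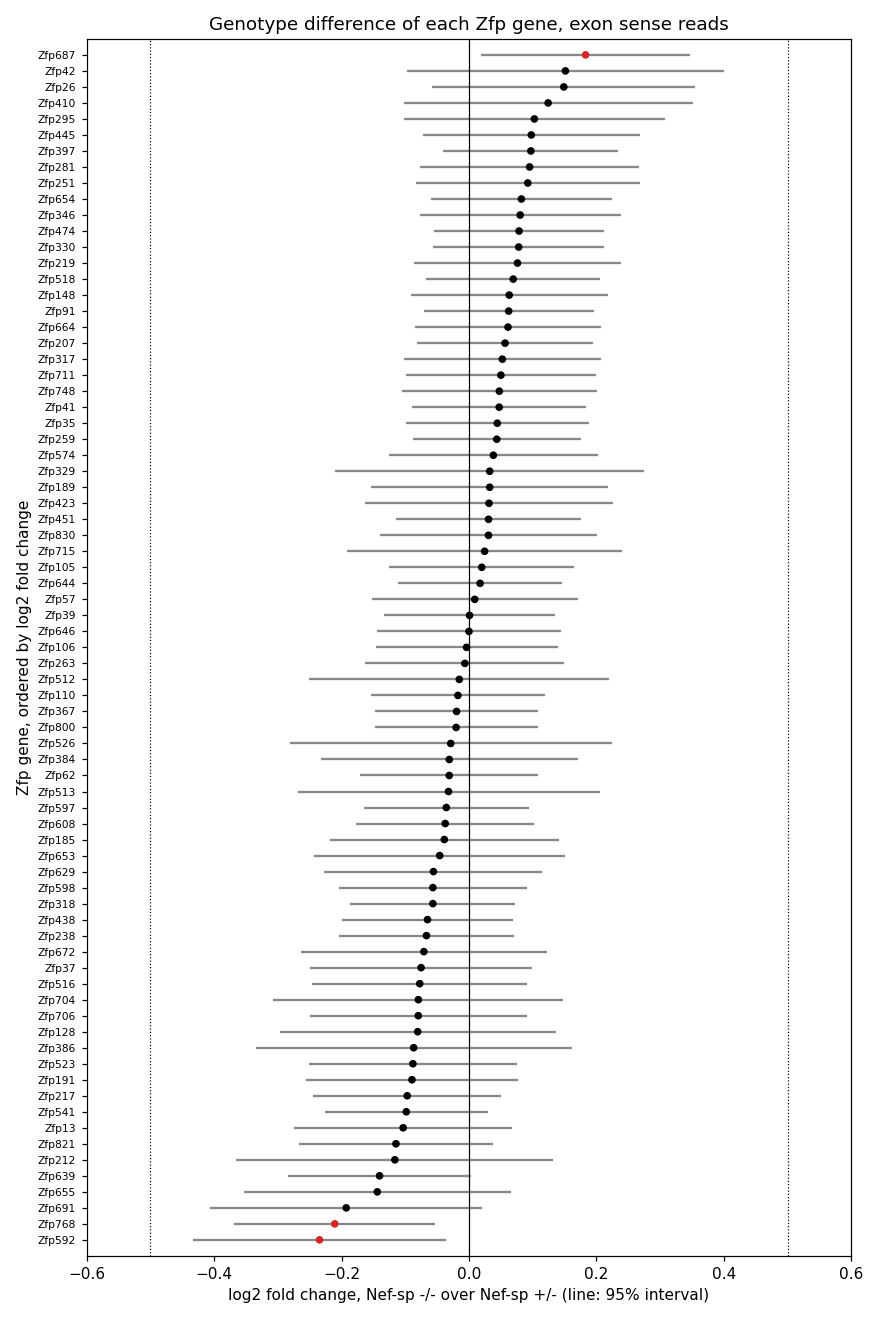
Log2 fold change of each of the 75 Zfp genes in exon sense reads, Nef-sp -/- over Nef-sp +/-, with the 95% interval as a line; red points have an unadjusted p below 0.05 and dotted lines stand at -0.5 and 0.5. All 75 intervals lie between the dotted lines, and those of 3 genes, Zfp687, Zfp768 and Zfp592, leave out 0.

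The groups of libraries did not overlap for 29 Zfp genes, 14 higher and 15 lower in Nef-sp -/-, against 3701 of the 10728 features (34.5%), of which 1757 were higher (16.4%) and 1944 lower (18.1%).

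**Figure D3:**
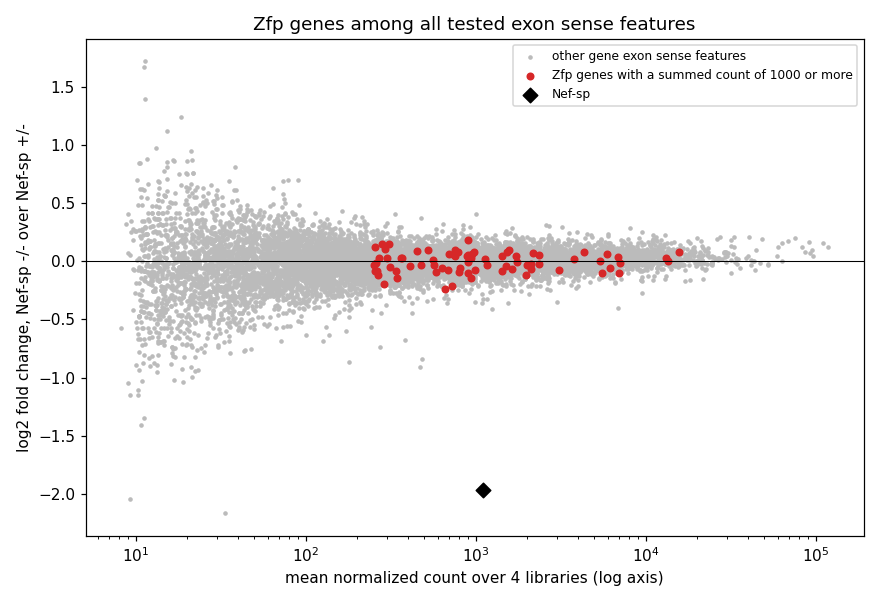
Log2 fold change against the mean normalised count over the 4 libraries (log axis) for all 10728 features tested; red points are the 75 Zfp genes, the black diamond is Nef-sp and grey points are the other features. The Zfp genes lie within the grey band between -0.23 and 0.18, and Nef-sp stands apart at -1.97.

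The genes with the largest values in either direction included a known pair. Zfp592 and Zfp687 encode proteins that bind each other in a chromatin complex, and their values pointed opposite ways. Zfp592 had 690.6 and 738.7 normalised reads in the controls against 664 and 553.8 in Nef-sp -/- libraries, with a log2 fold change of -0.23 (SE 0.0902). Zfp687 had 898.9 and 803.5 in the controls against 947 and 977.4 in Nef-sp -/- libraries, with a log2 fold change of 0.18 (SE 0.0743). The genotypes did not overlap in either gene, but the edgeR adjusted p was 0.954 for both (unadjusted 0.0251 and 0.0319). Without replicate 1 of Nef-sp -/- the value of Zfp592 was -0.37 and without replicate 2 it was -0.11, and that of Zfp687 was 0.10 without replicate 2 of Nef-sp +/-. Zfp768 had 750.4 and 804.9 against 665.2 and 682.7, with a log2 fold change of -0.21 (SE 0.0716) and the smallest unadjusted edgeR p of the genes, 0.0137, which also gave an adjusted 0.954.

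The other genes with the largest values also had an adjusted p of 0.954 or 0.956. Towards lower values these were Zfp691 with a log2 fold change of -0.19, Zfp655 with -0.14 and Zfp639 with -0.14, and none of these overlapped between the genotypes. Towards higher values they were Zfp42 with 0.15, Zfp26 with 0.15, Zfp410 with 0.12 and Zfp295 with 0.10. The libraries of Zfp42 and Zfp410 overlapped and those of Zfp26 and Zfp295 did not.

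Of 6 listed genes known for silencing retroelements or keeping imprints, 2 were among the well-expressed genes and neither passed the test. Zfp57, which binds methylated imprint control regions, had 566 and 562 normalised reads in the controls against 581 and 554 in Nef-sp -/- libraries (log2 fold change 0.01, SE 0.0731). Zfp445, which acts with it at imprints, had 775 and 697 in the controls against 759 and 809 in Nef-sp -/- libraries (log2 fold change 0.10, SE 0.0773). Both genes overlapped between the genotypes, and both carried a KRAB pattern.

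Of 8 genes listed for germ cells and testis, 5 were included, 0 passed the test, and their median log2 fold change was -0.06. Zfp541, a protein required for male germ cells to leave the meiotic prophase, had 5808 and 5632 normalised reads in the controls against 5415 and 5268 in Nef-sp -/- libraries (log2 fold change -0.10, SE 0.0579, edgeR adjusted p = 0.954). Zfp318, first described in testis and also known for its part in immunoglobulin transcript choice, had 6472 and 6186 against 6026 and 6140. In both genes the Nef-sp -/- libraries were lower without overlap, by amounts near the SE in Zfp318 (log2 fold change -0.06, SE 0.0585).

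Zfp37, known from male germ cells, had 2899 and 3456 normalised reads in the controls against 3000 and 3045 in Nef-sp -/- libraries. Zfp35, another gene described in spermatocytes, had 870 and 880 against 907 and 899, and its libraries did not overlap. Zfp42, the stem cell marker also called Rex1, had 326 and 265 against 336 and 311. The Nef-sp +/- libraries of Zfp37 and Zfp42 lay farther apart than the means of the genotypes. Without replicate 2 of Nef-sp +/-, the log2 fold change of Zfp37 went from -0.08 to 0.06 and that of Zfp42 from 0.15 to -0.0085, so the sign of both rested on that library.

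Of 8 genes listed for RNA binding and translation, 4 were included and none passed the test (median log2 fold change 0.03). Zfp598, the ubiquitin ligase that senses collided ribosomes, had 841 and 812 normalised reads in the controls against 796 and 792 in Nef-sp -/- libraries, which did not overlap (log2 fold change -0.06, SE 0.0670). Zfp346, which binds double-stranded RNA, had 800 and 745 against 796 and 833. Zfp106, an RNA-binding protein needed by motor neurons, had 1816 and 1713 against 1703 and 1813. Zfp207, a spindle and splicing factor, had 2405 and 2251 against 2372 and 2466. The last 3 overlapped between the genotypes. Zfp207 shares exon sequence on the same strand with the annotated gene AL591146.1, so its reads could come from either.

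Of 16 genes listed as transcription and chromatin regulators, 9 were included and 0 passed the test, with a median log2 fold change of 0.06 and 7 of 9 above 0. The most abundant in raw reads were Zfp217, a partner of the CoREST corepressor, and Zfp91, a ubiquitin ligase. Zfp217 had 6838 and 7620 normalised reads in the controls against 6872 and 6653 in Nef-sp -/- libraries, and Zfp91 had 5681 and 5891 against 6219 and 5867. Both overlapped. Zfp91 shares exon sequence on the same strand with Cntf, which may divide its reads.

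Zfp281, a regulator of pluripotent cells, had 511 and 510 normalised reads in the controls against 568 and 522 in Nef-sp -/- libraries, and Zfp148, a related protein, had 689 and 672 against 693 and 728. Neither pair overlapped, and the log2 fold changes were 0.10 (SE 0.0776) and 0.06 (SE 0.0701). Zfp410, known as an activator of Chd4, had 255.5 and 234.5 against 254.1 and 276.9, and Chd4 itself had 7626 and 7360 against 6966 and 7265. The other 4, Zfp711 (an X-linked partner of a histone demethylase), Zfp219, Zfp384 and Zfp423 (a partner of early B cell factors), overlapped between the genotypes, with log2 fold changes of 0.05, 0.08, -0.03 and 0.03. Without replicate 2 of Nef-sp -/- that of Zfp384 was 0.10.

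The silencing machinery that KRAB zinc finger proteins recruit was represented by 22 listed cofactors, of which 20 were in the table. None passed the test at an adjusted p below 0.05, and 2 of the 20 had an unadjusted p below 0.05, beside 4.8% of all features. Their log2 fold changes were below 0 in 18 and above 0 in 2, with a median of -0.06 and a range from -0.31 to 0.04. Over all features tested, 5380 were below 0 and 5348 above. Over the 6663 features with a summed count of 1000 or more, as each tested cofactor had, 3156 were below 0 and 3507 above. Trim28, the corepressor itself, had 10114 and 9806 normalised reads in the controls against 9430 and 8731 in Nef-sp -/- libraries (log2 fold change -0.13, SE 0.0624, edgeR adjusted p = 0.954).

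Mta1, a subunit of the NuRD deacetylase complex, had the largest value of the cofactors with 745 and 706 against 641 and 523 (log2 fold change -0.31, SE 0.0934, edgeR adjusted p = 0.954). Uhrf1, which guides DNA methylation to replicated DNA, had 2155 and 1967 against 1837 and 1860 (log2 fold change -0.15, SE 0.0652, edgeR adjusted p = 0.954). Setdb1, the methyltransferase of the pathway, had 1761 and 1561 against 1557 and 1626, which overlapped. Of the 20 cofactors, 7 did not overlap between the genotypes, against 34.5% of all features tested. All 7 were lower in Nef-sp -/-, against 18.1% of all features tested that were lower without overlap. Whether the cofactors vary together between libraries was not tested.

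Markers of testis cell types were counted in the same libraries, and edgeR called 0 of them at an adjusted p below 0.05. The summed normalised reads of 5 elongating spermatid genes were 334410 and 414840 in the controls against 421140 and 408930 in Nef-sp -/- libraries. Those of 5 Leydig cell genes were 17729 and 18053 against 16893 and 14212. All 5 elongating spermatid genes had a log2 fold change above 0, from 0.12 to 0.18. Of these, 2 (Tnp1 and Tnp2) did not overlap between the genotypes, and Prm1, Prm2 and Odf1 did. Replicate 1 of Nef-sp +/- was the lowest library in each, as in Prm2 with 96587 and 130660 against 123190 and 123970. Of the Leydig cell genes, Cyp17a1 and Cyp11a1, which encode steroid-synthesis enzymes, were lower in both Nef-sp -/- libraries. Cyp17a1 had 10616 and 10209 against 9284 and 7950 (log2 fold change -0.27, SE 0.0754, edgeR unadjusted p = 0.0042, adjusted p = 0.954). Cyp11a1 had 3511 and 3248 against 2886 and 2422 (log2 fold change -0.35, SE 0.0820, edgeR unadjusted p = 0.00148, adjusted p = 0.859). The other 3 Leydig cell genes, Star, Hsd3b6 and Insl3, overlapped and lay above 0, with log2 fold changes of 0.08, 0.01 and 0.18. The median of the 5 was 0.01. Sertoli cell genes (4 of 6 listed) summed to between 17720 and 18519, spermatocyte genes to between 13395 and 14701 and round spermatid genes to between 24009 and 25049 in every library. Clu alone gave 15567 to 16254 of the Sertoli sum, and Tssk1 11681 to 12831 of the round spermatid sum. Spermatogonial genes ran from 412 to 548 and peritubular myoid genes from 1114 to 1305. Log2 fold changes were below 0 in 2 of 4 Sertoli, 4 of 5 round spermatid and 3 of 3 tested peritubular myoid genes. Lower without overlap in Nef-sp -/- were Wt1 (-0.11), Catsper3 (-0.18, edgeR unadjusted p = 0.0329, adjusted p = 0.954) and Acta2 (-0.16). Macrophage genes stayed between 84 and 96.5 and the 2 listed blood genes between 213 and 254. Of the blood genes, Alas2 was higher without overlap in Nef-sp -/- (log2 fold change 0.23), and Hbb-b1 overlapped (-0.75). Zbtb16 and Gfra1, spermatogonial genes with too few reads to test, were also higher without overlap. Crisp1, the epididymal marker that was listed, had 0 reads in 3 libraries and 5.77 in replicate 1 of Nef-sp -/-. The part of these differences in the values of the Zfp genes was not tested.

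Among the other zinc finger genes, edgeR called 0 in each of the following groups at an adjusted p below 0.05. The share of all features with an unadjusted p below 0.05, 4.8%, stands beside the counts that follow. Of the 135 Zfp genes under the sum, 101 could be tested, and 3 of them had an unadjusted p below 0.05. Their log2 fold changes ran from -0.81 to 0.59 with a median of 0.0077. Among the BTB-domain genes named Zbtb 23 of 26 were tested and 5 had an unadjusted p below 0.05, and among the SCAN-domain genes named Zscan 5 of 6 were tested and 0 did. Of 7 Zkscan genes, which carry both a KRAB and a SCAN domain, all were tested and 1 did.

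The coding sequences of the well-expressed Zfp genes differed from those of the Zfp genes under the sum in features that the selection did not use. The 74 matched genes were set beside 133 matched genes under the sum, as a description without a test, since genes that arose by duplication are not independent. A KRAB pattern was found in 11 of 74 (14.9%) against 71 of 133 (53.4%). When both parts of the pattern were required, the counts were 5 (6.76%) and 29 (21.8%). The well-expressed KRAB genes were Zfp110, Zfp128, Zfp251, Zfp26, Zfp317, Zfp386, Zfp39, Zfp445, Zfp57, Zfp715 and Zfp748. The patterns miss diverged domains, so these are minimum counts.

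Fingers were also fewer. The median count of fingers per protein was 7 in the well-expressed genes and 11 in the others, although the median protein was of similar length, 600.5 and 583 residues. A count of 10 fingers or more was found in 22 genes (29.7%) against 78 (58.6%), and one of 1 to 4 in 20 (27.0%) against 15 (11.3%). The TGEKP linker seen in the printed fingers of Zfp26 and Zfp39 occurred 3 times or more in 24 genes (32.4%) against 88 (66.2%). No such linker was found in 33 (44.6%) against 25 (18.8%), as in Zfp654 and Zfp646. Among the well-expressed genes, Zfp646 and Zfp423 had the most fingers, 27 each, followed by Zfp62 with 25. In the same set, Zfp185, Zfp259, Zfp330 and Zfp474 had no finger of the C2H2 spacing that was searched.

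**Figure D4:**
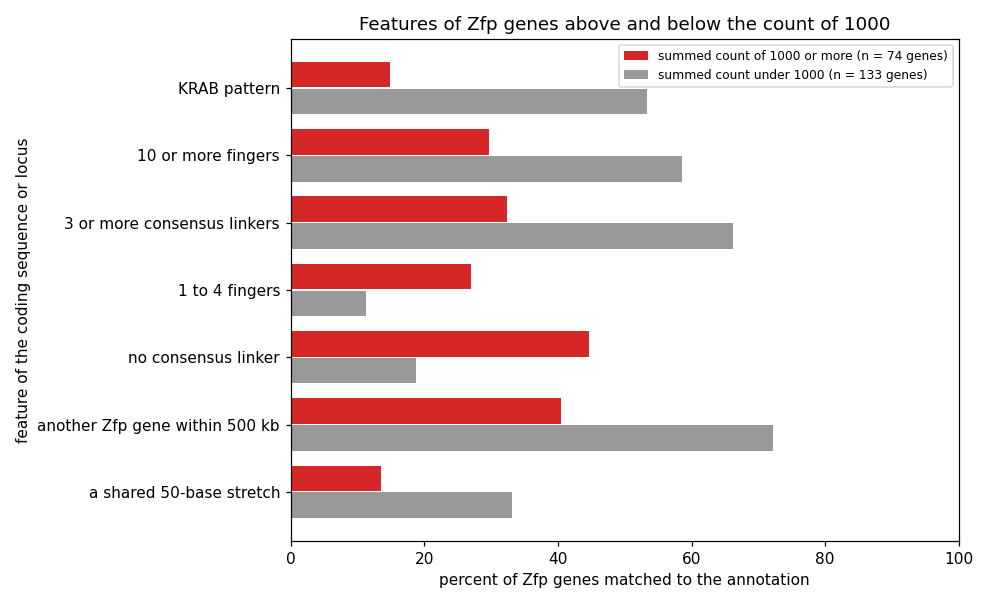
Percent of Zfp genes with each feature of the coding sequence or locus, for the 74 annotated genes with a summed count of 1000 or more (red) and the 133 with a summed count under 1000 (grey). The KRAB pattern is in 14.9% against 53.4% and another Zfp gene lies within 500 kb of 40.5% against 72.2%.

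The well-expressed genes were scattered over 19 chromosomes. Another Zfp gene lay within 500 kb of 30 of them (40.5%), against 96 of the others (72.2%). Among the well-expressed genes, Zfp748 lay in the densest neighbourhood, with 18 other Zfp genes within 500 kb. One transcript per gene was searched for stretches of 50 bases, the length of the reads, found also in protein-coding transcripts of other genes. Such a stretch occurred in 10 of the well-expressed genes (13.5%) and 44 of the others (33.1%). More than 5% of a transcript's 50-base stretches were shared in 0 and 14 genes (10.5%). Other transcripts and the rest of the genome were not searched, so these are minimum counts. How the counting treated reads that match more than one place is not given in the sources used here. Whether shared sequence affected which genes reached the sum was not tested. The largest shares among the well-expressed genes were 3.92% for Zfp706, with Inadl, 2.24% for Zfp39, with 2810021J22Rik, and 1.47% for Zfp110, with Zfp369.

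Levels and genotype differences by class were as follows. Reads per kb had a median of 149.4 in the 11 KRAB genes and 280.2 in the 63 without the pattern, with ranges that overlapped widely (29.1 to 1727 and 24.6 to 3320). The log2 fold change had a median of 0.02 in the KRAB genes, 8 of 11 above 0, and of -0.02 in the others, 27 of 63 above 0. By fingers, it was 0.03 in the 22 genes with 10 or more, -0.03 in the 28 with 5 to 9 and -0.02 in the 20 with 1 to 4.

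Reads in introns, which come partly from unspliced RNA, were not used in the selection. Intron sense reads were listed for 50 of the 75 genes and amounted to 4.04% of the genes' exon reads, with a median of 50.5 raw reads per listed gene. There were enough reads to test 27 genes, of which edgeR called 0 at an adjusted p below 0.05 (background 0.0294%, or 1 of 3403 features), 0 had an unadjusted p below 0.05 (background 2.35%) and DESeq2 called 0. Zfp574 stood out in level, with 11023 intron reads or 40.1% of its exon reads. Its normalised intron counts were 2510 and 2924 in the controls against 3171 and 2363 in Nef-sp -/- libraries, which overlapped (log2 fold change 0.03, SE 0.151). The next were Zfp219 with 13.8%, Zfp451, which encodes a SUMO ligase, with 11.4%, Zfp672 with 11.1% and Zfp644 with 9.85%. These percentages were not scaled to intron length, which differs between the genes. Zfp574 spans only chr7:25862265-25868511, with 4.195 kb of annotated exon. Where its intron reads come from was not tested.

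**Figure D5:**
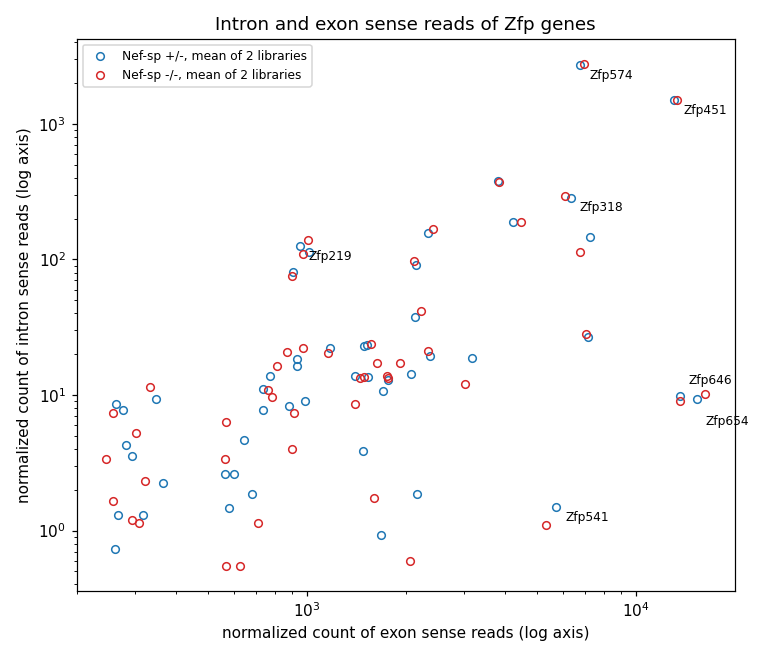
Normalised intron sense reads against normalised exon sense reads (both log axes) for the Zfp genes with intron reads listed, each category normalised on its own; each point is the mean of 2 libraries, blue Nef-sp +/- and red Nef-sp -/-, and means of 0 are left out. Zfp574 and Zfp451 lie highest, and Zfp654, Zfp646 and Zfp541 have few intron reads for their exon level, without regard to intron length.

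The smallest p-values in introns belonged to Zfp217, Zfp37 and Zfp397. Zfp217 had 149 and 143 normalised intron reads in the controls against 121 and 107 in Nef-sp -/- libraries, without overlap (log2 fold change -0.35, SE 0.172, edgeR adjusted p = 1). Zfp37 had 23.5 and 14 against 13.1 and 11 (log2 fold change -0.58, SE 0.411) and Zfp397 had 20.2 and 26.5 against 21.4 and 13.2 (-0.47, SE 0.347). With SEs of this size, differences under about 1 on the log2 scale were not detectable for genes with few intron reads. The 95% interval lay within ±1 for 20 of the 27 genes and within ±0.5 for 7.

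Antisense reads were sparse. Over exons they were listed for 10 genes and made 0.0581% of the genes' exon sense reads, and over introns they were listed for 6 genes. Of the 2 genes testable over exons, Zfp367 had a log2 fold change of 0.61 (SE 0.454) and Zfp451 of 0.25 (SE 0.227), and edgeR called 0 there, with an adjusted p of 0.996 for both, 0 with an unadjusted p below 0.05. Of the 4 testable over introns, 1 had an unadjusted p below 0.05 (background 4.5%, or 64 of 1421 features) and 0 were called by edgeR or DESeq2.

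That gene was Zfp212, with 5.83 and 7.05 normalised antisense intron reads in the controls against 17.3 and 12.9 in Nef-sp -/- libraries (log2 fold change 1.18, SE 0.471, edgeR adjusted p = 0.969). The genotypes did not overlap, but the gene had only 41 raw reads in this category. Its sense exon reads, 257 and 296 against 276 and 239, overlapped. Zfp384, a factor that binds runs of adenine, had 33.8 and 28.2 antisense intron reads against 50.7 and 36.2 (log2 fold change 0.51, SE 0.262, edgeR adjusted p = 0.969). Zfp451 had the most, 272 and 284 against 288 and 277, which overlapped, and Zfp367 had 11.7 and 9.87 against 9.21 and 14.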

How the data were processed

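Strand-specific libraries of ribosome-depleted total testicular RNA were sequenced by the study. After trimming adapters, the authors aligned reads to mm9 by means of in-house software (version not given in the sources used here), retained perfect matches only, and deposited raw counts per feature, annotation category and strand. Their DESeq2 comparison columns were not used. Libraries were grouped by the genotype in the labels. Each category was fitted on its own with edgeR 4.0.16 in R 4.3.3 (glmQLFit, glmQLFTest, TMM, filterByExpr with a minimum count of 10) over the 4 libraries, with Benjamini-Hochberg adjustment over all features tested and a threshold of 0.05. DESeq2 1.42.0 was an alternative, as were other size factors, filters, a replicate block, each library left out and other sums. Scripts were tested on simulated counts.

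Positions, exon lengths and coding sequences came from GENCODE vM1 on mm9. No protein table was used: domain patterns were sought in translated coding sequences, in place of the RefSeq proteins planned. Zfp664 had no single match. RefSeq (GRCm38.p6) served only for names, and 5 symbols are not current, Zfp295 (now Zbtb21) among them.

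Genes were named by rule: those in the role lists, the 5 highest and 3 lowest per kb, the 5 largest fold changes in each direction, the 3 smallest p per category, the 3 on either side of the sum, and those with the most shared stretches and fingers. Zfp451, Zfp672, Zfp644, Zfp748, the markers named singly, the genes without a finger and the KRAB genes were added after their values were seen. The genes and lists were chosen with earlier results of these data known. Between libraries of a genotype, chi-square per degree of freedom was 8.53 and 3.52, more than counting noise gives, so neither pair was taken as repeat deposits of one library. Whether a pair shares an animal cannot be told from this.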

Additional observations from a re-analysis of the deposited data

How the results depend on the processing

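The count of 0 called Zfp genes held under every alternative, in exons, introns and antisense introns. The median log2 fold change ran from -0.0281 (library sizes over all categories) to 0.0238 (without replicate 2 of Nef-sp -/-), and the genes above 0 from 32 to 42. Nef-sp stayed between -1.83 and -2.11 with one library left out. The smallest adjusted p of a Zfp gene ran from 0.333 (edgeR without replicate 2 of Nef-sp +/-) to 1 (DESeq2). Calls over all exon features were 1 with edgeR, 2 with DESeq2, 41 without replicate 1 of Nef-sp +/- and 252 without replicate 2 of Nef-sp +/-, where the lone library is assumed to vary like the other genotype, and the cause was not tested. Over introns they were 0 with DESeq2, without a filter and with library sizes over all categories, and over antisense introns 3 without replicate 2 of Nef-sp +/-. Without replicate 2 of Nef-sp +/-, Zfp513 went to 0.08.

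With the replicate number as a block, 0 Zfp genes were called, the median was -0.0043 and 36 were above 0. Deviations of same-numbered libraries correlated at -0.0909 in exons, -0.154 in introns and -0.11 in antisense introns, and the labels do not say that the numbers pair the samples. A crossed pairing for the intron categories, added after seeing the data, called 0 Zfp genes and 2 intron features. Depth limits the intron and antisense results, where 27 genes (introns), 4 (antisense introns) and 2 (antisense exons) had enough reads to be tested.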
